A study of Mus musculus with 92 samples.

Results

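The genes described here encode the cytosolic sensors of double-stranded RNA and their first relays: Ifih1 (MDA5), Ddx58 (RIG-I), Dhx58 (LGP2), Eif2ak2 (PKR), Mavs and Tbk1. They were chosen by name and are 6 of the 29956 named genes in the deposited table. All 6 passed the filter on low levels in every fit. Transcripts were measured by bulk RNA sequencing of 92 libraries of mouse myeloid cells, and levels are given as log2 CPM, log2 of the counts of a gene for every 1000000 counted in its library.

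MDA5 and RIG-I are helicases that bind double-stranded RNA in the cytosol and signal through MAVS, an adaptor on the mitochondrial outer membrane, to TBK1, a kinase that phosphorylates interferon regulatory factors. LGP2 lacks the signalling domains of its relatives and modulates them, while PKR is a kinase that, once bound to double-stranded RNA, phosphorylates the translation initiation factor eIF2 alpha. ADAR1, the product of Adar, edits adenosines in double-stranded RNA of the cell itself, which limits sensing by MDA5 and PKR, and the genes of the helicases and of PKR are known to be induced by interferon in macrophages and microglia.

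The study examined ER-Hoxb8 cells, conditionally immortalized myeloid progenitors, as donors that replace microglia, and used them to follow loss of Adar, a gene mutated in Aicardi-Goutières syndrome. ER-Hoxb8 cells are held immature by an estrogen-dependent Hoxb8 fusion protein and become macrophages in M-CSF once estrogen is withdrawn. All donors and lines were on the FVB background, and the labels give no ages.

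Wild-type marrow gave progenitors (BM progenitors), monocytes (BM monocytes) and, after 7 days in culture, macrophages (BMD macrophages), with 3 libraries each. ER-Hoxb8 cells with the genotype label Cas9 het were taken at day 0 (Hoxb8 progenitors), day 4 and day 7 (Hoxb8 macrophages), again with 3 libraries each. For this comparison the paper describes 3 biologically independent lines. Wild-type marrow cells and ER-Hoxb8 cells were injected into brains of CSF1R KO hosts, which lack microglia, and sorted back out as BMD MLCs and Hoxb8 MLCs (microglia-like cells, 6 libraries each). Microglia of uninjected wild-type mice gave 9 libraries. Cas9 het ER-Hoxb8 cells with a non-targeting guide (NTC), with Adar guide 1 (sg1) or with Adar guide 2 (sg2) gave 3 progenitor libraries per guide. Their macrophages after 7 days gave 3 NTC, 3 sg1 and 5 sg2 libraries. Further NTC and sg1 macrophages were grown for 7 days with baricitinib, an inhibitor of the kinases JAK1 and JAK2 that relay interferon signals. Doses were 0, 0.0006, 0.016, 0.4 and 10 uM, with 3 or 4 libraries per guide and dose. The protocol text gives 0.00064 and 0.16 uM where the labels give 0.0006 and 0.016 uM, and the doses of the labels are used here.

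Each model has limits. Each edited line was a sorted pool made from ER-Hoxb8 cells with 1 guide, so its replicates are cultures and not animals. Hoxb8 MLCs carry the genotype label WT where cultured ER-Hoxb8 cells carry Cas9 het, and by library name 3 of the 6 belong to a series GFPHox and 3 to a series WTHox. Between Hoxb8 MLCs and cultured Hoxb8 macrophages, the brain and the line can therefore not be told apart. By the methods of the study, brain cells were also isolated and sorted before lysis, while adherent cultures were lysed in the dish. Microglia replicates 8 and 9 carry another series name, YSWT. In bulk RNA, fewer cells of a type and less RNA per cell cannot be told apart.

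The deposited columns fall into 6 sets that each share one lowest value and were normalized apart, and levels were compared only within a set. The table holds no counts, so depth (M, in units of 1000000 counts) was read from how finely the low values of each library are spaced. It ran from 34.4 to 48.9 M in the 12 libraries of marrow progenitors and monocytes and of ER-Hoxb8 cells up to day 4. Among the 27 libraries of cultured macrophages and brain cells it ran from 24.6 M upward in cultured cells, from 17.4 to 26.9 M in BMD MLCs, from 8.62 to 25.0 M in Hoxb8 MLCs and from 19.2 to 32.8 M in microglia. It was 17.2 to 41.8 M in 11 libraries of NTC and sg1 cells, 18.5 to 27.2 M in the 8 sg2 libraries and 6.06 to 34.2 M in the 33 baricitinib libraries.

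A few libraries stood apart. NTC macrophage replicate 2 (19.6 M) was normalized alone and entered no test on the deposited scale. Among baricitinib libraries, sg1 at 0.4 uM replicate 2 had Ifih1 at 9.32 log2 CPM where replicates 1 and 3 had 3.66 and 4.37. In microglia, replicate 8 had 632 summed CPM of 4 oligodendrocyte markers, against 25.9 to 80.2 in the other 8 libraries, and 9493 genes above 1 CPM, the fewest of its group. Some tests of the 6 genes were repeated without sg1 at 0.4 uM replicate 2 or microglia replicate 8.

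Promoter sequence was looked up because the helicase genes and Eif2ak2 moved together in several comparisons below. Promoters of 5 of the 6 genes were found in the RefSeq table of build GRCm38.p6, each covering 250 bases before to 50 after the start of the gene, and Dhx58 had no entry. Searched on both strands was the core of the element bound by interferon-activated factors: GAAA, any 2 bases and GAAA again, present in 3.44% of 32851 promoters, and the shorter form with any 1 base between, GAAANGAAA, present in 3.17%. A match to either was found in 3 genes, Ifih1 (chr2:62646206-62646235), Ddx58 (chr4:40239866-40239895 and chr4:40239804-40239833) and Eif2ak2 (chr17:78882535-78882564), all on the minus strand of the chromosome, and none in Mavs or Tbk1. One of the promoter entries of Adar, the gene targeted by the guides, held a match too (chr3:89730736-89730765, plus strand). Windows of 30 bases are shown 5′ to 3′ on the strand of the gene, with the match in capitals; in the second window of Ddx58 the motif reads on the opposite strand. A match is a description of the letters in the window and does not show that a factor binds there.
Ifih1: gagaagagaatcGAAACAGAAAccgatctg
Ddx58 first window: tctaggttcaGAAACGAAActggatccccg
Ddx58 second window: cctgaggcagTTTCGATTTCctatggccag
Eif2ak2: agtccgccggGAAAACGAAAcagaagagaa
Adar: ccttttcaagGAAACGAAAgtgaactctgg

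Marrow progenitors and monocytes were compared to see how the sensors stand in primary cells before and after commitment. Dhx58, whose product modulates the other helicases, was at 1.82, 2.59 and 2.67 log2 CPM in BM progenitors and at 4.76, 4.76 and 4.63 in BM monocytes. All 3 monocyte libraries lay above all 3 progenitor libraries. The log2 fold change (log2FC) was 2.35 (standard error, SE, 0.34, adjusted p = 0.00194, with p adjusted over all genes tested). Of the 6 genes, 1 passed an adjusted p below 0.05, where 13.8% of all genes tested did (7.01% higher in monocytes). Tbk1 also did not overlap, at 6.38, 6.44 and 6.29 in progenitors and 6.76, 7.12 and 6.71 in monocytes, but did not pass (log2FC 0.50, SE 0.19, adjusted p = 0.109). Here and below, the share of all genes without overlap was not counted, so a lack of overlap alone is not read as a difference. Ifih1, Ddx58, Eif2ak2 and Mavs overlapped between the groups, with log2FC from -0.39 for Eif2ak2 to 0.79 for Ddx58. Markers of other cells differed as well: BM progenitors had 74.8 to 511 summed CPM of 3 B cell markers, led by Cd79a, against at most 14.8 in monocytes, 216 to 405 of 3 NK cell markers, led by Nkg7, against 72.7 to 139.7, and 204 to 456 of 4 plasmacytoid dendritic cell markers against 48.2 to 64.3. Their part in the result was not tested.

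ER-Hoxb8 cells at day 0 were set against BM progenitors, the primary cells they stand in for. Dhx58 was at 3.35, 4.11 and 3.01 log2 CPM in Hoxb8 progenitors, above the 1.82 to 2.67 of BM progenitors in every library. It was the 1 gene of the 6 that passed, against 25.5% of all genes, 11.3% higher in Hoxb8 progenitors (log2FC 1.13, SE 0.34, adjusted p = 0.0295). The call was lost without BM progenitor replicate 1 (log2FC 0.86, adjusted p = 0.116) or replicate 2 (1.24, adjusted p = 0.0504), and without Hoxb8 progenitor replicate 1 (1.20, adjusted p = 0.0520) or replicate 2 (0.82, adjusted p = 0.0801). Without Hoxb8 progenitor replicate 3, Ddx58 passed as well (1.28, adjusted p = 0.0387). Ifih1 (4.58 to 4.82 in Hoxb8 and 4.00 to 4.32 in BM progenitors) and Tbk1 (6.72 to 6.92 and 6.29 to 6.44) did not overlap either but did not pass (log2FC 0.49 and 0.48, adjusted p = 0.153 and 0.0904). How many of all genes did not overlap was not counted. The Hoxb8 progenitor libraries were uneven in macrophage markers. Summed CPM of 5 macrophage markers, led by Cd68, was 449.5, 2088 and 5499 from the lowest to the highest library, against 139.7 to 225.8 in BM progenitors, while 4 progenitor markers summed to 19.5 to 96.4 CPM against 346 to 522. Neutrophil markers were at 42.15 to 2765 against 6347 to 17230, B cell markers at 0.356 to 0.496 against 74.8 to 511, NK cell markers at 0.4205 to 0.520 against 216 to 405, T cell markers at 0.419 to 0.678 against 13.2 to 50.7, and plasmacytoid dendritic cell markers at 47.2 to 119 against 204 to 456. Their part in the result was not tested.

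From day 0 to day 4 of differentiation, 0 of the 6 genes passed in limma and 0 had an unadjusted p below 0.05, and 0% of all genes passed. Mavs, the adaptor, was at 5.84, 6.84 and 5.36 log2 CPM at day 0 and 6.78, 6.57 and 6.43 at day 4. The second day 0 library lay above all day 4 libraries, and without it Mavs passed (log2FC 0.99, adjusted p = 0.0348). At day 7, Hoxb8 and BMD macrophages were compared to see whether the line matches the primary cell in culture. In limma 0 of the 6 genes passed and 0 had an unadjusted p below 0.05, against 1.51% of all genes that passed. Eif2ak2 was at 6.40, 6.23 and 6.07 in Hoxb8 macrophages and 6.01, 5.55 and 5.34 in BMD macrophages. These values did not overlap, yet the difference did not pass (log2FC 0.60, 95% confidence interval -0.01 to 1.21, adjusted p = 0.412). Ifih1 (4.74 to 5.22 against 4.48 to 4.71) and Mavs (6.84 to 7.14 against 6.61 to 6.83) did not overlap either and did not pass. For the 5 genes other than Eif2ak2 log2FC ran from 0.09 for Tbk1 to 0.46 for Dhx58.

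**Figure D1:**
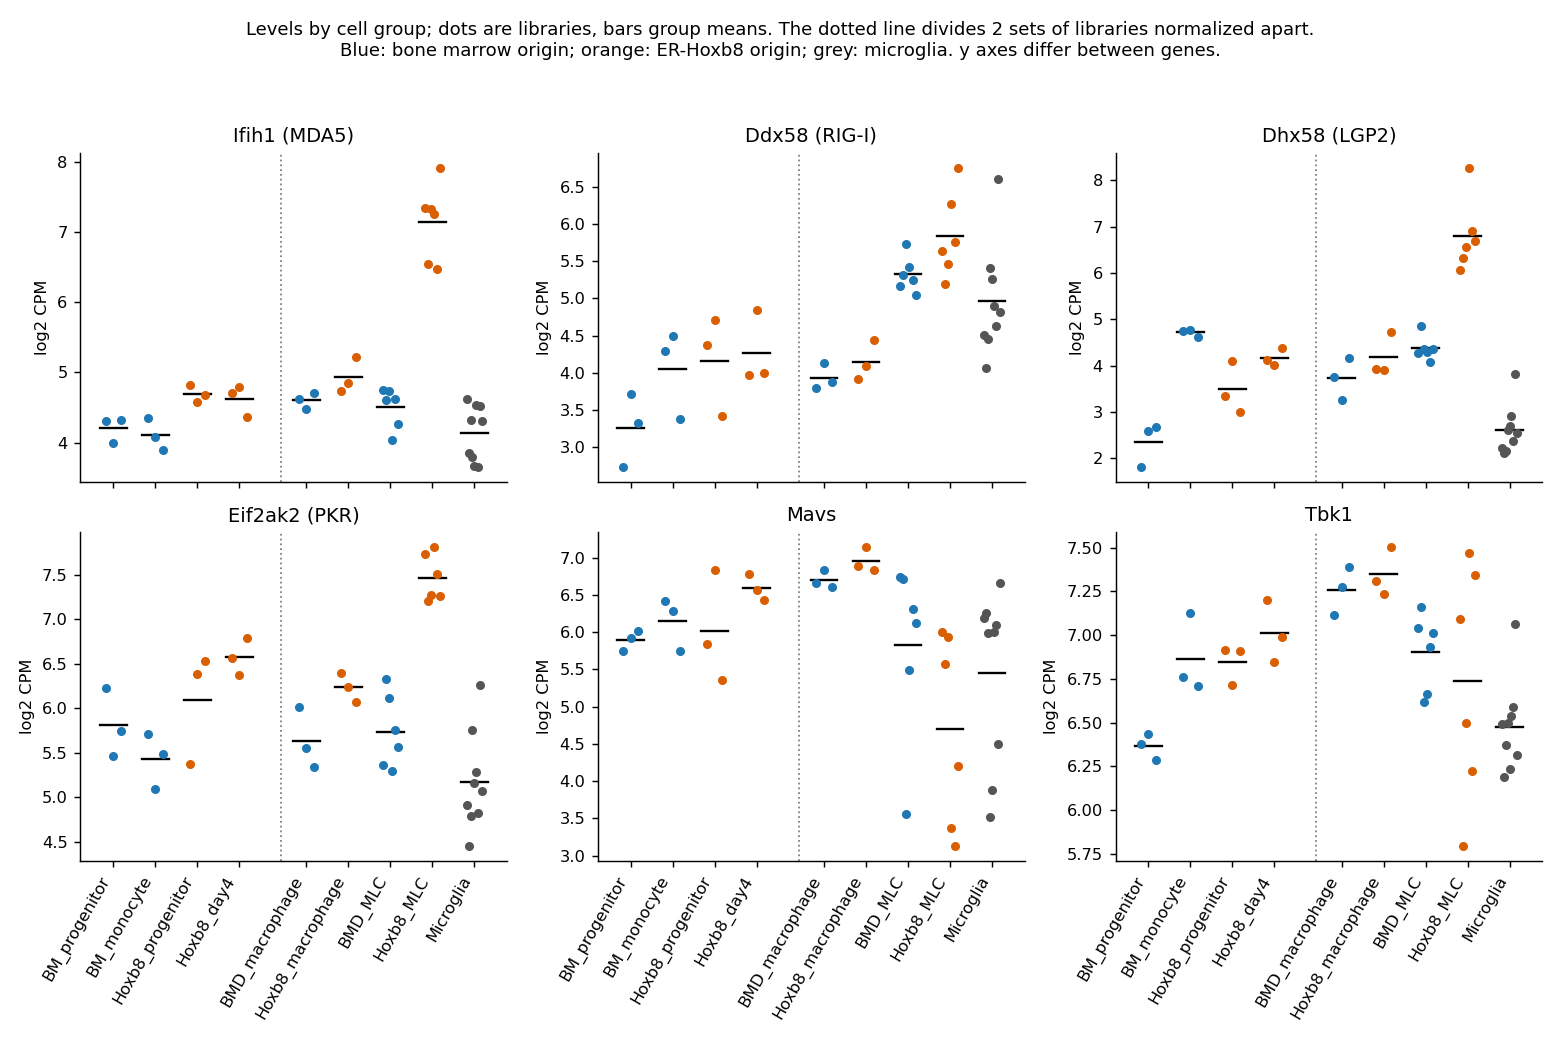
Levels (log2 CPM, y axis) of the 6 genes by group (x axis), with a dot for each library and a bar for each group mean; the dotted line divides libraries that were normalized apart. Hoxb8 MLCs have Ifih1 at 6.48 to 7.92 and Eif2ak2 at 7.20 to 7.81, above every other library of their set.

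In the brain, Ifih1, Dhx58 and Eif2ak2 differed between the donors, and the other 3 genes did not pass. Ifih1, the gene of MDA5, was at 7.34, 6.55, 7.33, 7.26, 6.48 and 7.92 log2 CPM in the Hoxb8 MLC libraries. It was at 4.03, 4.61 and 4.75 (lowest, median and highest of 6) in BMD MLCs and at 3.65, 4.30 and 4.62 (of 9) in microglia. Each of the 6 Hoxb8 MLC libraries lay above each library of the other groups, cultured Hoxb8 macrophages included (4.74, 4.85 and 5.22). Ifih1 was higher in Hoxb8 MLCs than in microglia by a log2FC of 3.01 (SE 0.22, adjusted p = 3.48e-11), than in BMD MLCs by 2.65 (SE 0.24, adjusted p = 2.22e-08) and than in Hoxb8 macrophages by 2.21 (SE 0.30, adjusted p = 3.81e-06). By group mean its order from high to low was Hoxb8 MLCs, Hoxb8 macrophages, BMD macrophages, BMD MLCs and microglia. Below Hoxb8 MLCs, no tested difference between groups of this order passed.

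Ddx58, the gene of RIG-I, was higher in cells from the brain than in cultured cells for both donors. It was at 3.79, 4.12 and 3.88 log2 CPM in BMD macrophages, at 3.92, 4.09 and 4.44 in Hoxb8 macrophages, at 5.05, 5.28 and 5.73 (lowest, median, highest) in BMD MLCs and at 5.19, 5.70 and 6.76 in Hoxb8 MLCs. Every MLC library lay above every cultured library of its donor. The log2FC was 1.39 in marrow cells (SE 0.39, adjusted p = 0.00855) and 1.70 in ER-Hoxb8 cells (SE 0.39, adjusted p = 0.00172). The difference between these log2FC did not pass (0.30, SE 0.55, adjusted p = 0.871). Microglia had Ddx58 at 4.06, 4.81 and 6.61, the highest in replicate 8. They overlapped with Hoxb8 MLCs, which were higher on average (log2FC 0.88, SE 0.29, adjusted p = 0.0193). That call was lost without Hoxb8 MLC replicate 6 (0.70, adjusted p = 0.0693), with the GFPHox libraries alone (0.47, adjusted p = 0.362) and with only the compared groups in the fit (0.88, adjusted p = 0.0702). Without microglia replicate 8 it was kept (1.09, adjusted p = 0.000495).

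Dhx58, the gene of LGP2, was at 6.06, 6.33, 6.56, 8.27, 6.91 and 6.68 log2 CPM in Hoxb8 MLCs, with replicate 4 the highest. BMD MLCs had 4.09, 4.33 and 4.86 (lowest, median, highest) and microglia 2.11, 2.54 and 3.82, the last in replicate 8. Groups did not overlap, with Hoxb8 MLCs highest, BMD MLCs between and microglia lowest. Each of the 3 differences passed: Hoxb8 MLCs over microglia by a log2FC of 4.20 (SE 0.30, adjusted p = 1.55e-11), Hoxb8 MLCs over BMD MLCs by 2.43 (SE 0.33, adjusted p = 7.36e-06) and BMD MLCs over microglia by 1.77 (SE 0.30, adjusted p = 6.78e-05). Against Hoxb8 macrophages, at 3.92, 3.91 and 4.73, Dhx58 was higher in Hoxb8 MLCs by 2.61 (SE 0.40, adjusted p = 1.92e-05).

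Eif2ak2, the gene of PKR, was at 7.73, 7.20, 7.28, 7.81, 7.51 and 7.26 log2 CPM in Hoxb8 MLCs, 5.29, 5.66 and 6.32 (lowest, median, highest) in BMD MLCs and 4.45, 5.07 and 6.26 in microglia. All Hoxb8 MLC libraries were higher than all libraries of the other groups, while BMD MLCs and microglia overlapped. Hoxb8 MLCs exceeded microglia by a log2FC of 2.30 (SE 0.23, adjusted p = 8.96e-09), BMD MLCs by 1.73 (SE 0.25, adjusted p = 2.37e-05) and Hoxb8 macrophages by 1.23 (SE 0.31, adjusted p = 0.00345). BMD MLCs against microglia did not pass (log2FC 0.57, adjusted p = 0.0836). Without microglia replicate 8, whose 6.26 was the highest of its group, that difference passed (0.70, adjusted p = 0.0105).

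Mavs, the adaptor, went the other way in ER-Hoxb8 cells and was split by library series. Hoxb8 MLCs had 6.00, 5.57 and 5.93 log2 CPM in the GFPHox libraries and 3.37, 3.13 and 4.20 in the WTHox libraries, against 6.88, 7.14 and 6.84 in Hoxb8 macrophages. Every MLC library lay below every cultured one. Mavs was lower in the MLCs by 2.25 on the log2 scale (SE 0.73, adjusted p = 0.0187). The call was lost without Hoxb8 macrophage replicate 1 (log2FC -2.29, adjusted p = 0.0542) or replicate 2 (-2.16, adjusted p = 0.0665), with replicate numbers as a block (-1.65, adjusted p = 0.0501) and with GFPHox libraries alone (-1.12, adjusted p = 0.280), while WTHox libraries alone gave -3.39 (adjusted p = 0.00162). Low values were not limited to that group. BMD MLC replicate 3 was at 3.56, where the median of its group was 6.22, and microglia replicates 4, 5 and 8 were at 3.51, 3.88 and 4.50, where the median was 6.00. Against microglia Mavs did not pass (log2FC -0.75, adjusted p = 0.306), but it was lower with WTHox libraries alone (-1.89, adjusted p = 0.0204), while GFPHox libraries alone gave 0.38 (adjusted p = 0.708).

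Tbk1, the kinase downstream of MAVS, was at 5.79, 6.79 and 7.47 log2 CPM (lowest, median, highest) in Hoxb8 MLCs, 6.62, 6.97 and 7.16 in BMD MLCs and 6.19, 6.49 and 7.06 in microglia. These ranges overlapped. With all libraries and the planned fit it passed in no comparison of brain cells. For BMD MLCs against microglia (log2FC 0.43, adjusted p = 0.157) it passed with quantile normalization (0.57, adjusted p = 0.0422), library weights (0.50, adjusted p = 0.000660) and only the compared groups (adjusted p = 0.0476). Against Hoxb8 macrophages, at 7.31, 7.23 and 7.50, the log2FC was -0.61 (SE 0.28, adjusted p = 0.0860). This difference passed with library weights (-0.58, adjusted p = 0.0155), without Hoxb8 MLC replicate 4 (-0.76, adjusted p = 0.0309) and without replicate 6 (-0.73, adjusted p = 0.0387). It also passed with GFPHox libraries alone (-0.89, adjusted p = 0.0163), but not with WTHox libraries alone (-0.34, adjusted p = 0.347).

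By count, 4 of the 6 genes were higher in Hoxb8 MLCs than in microglia and 0 lower, where 33.9% of all genes passed in either direction and 15% were higher, and the same 4 were higher without microglia replicate 8 (40.7%). Between Hoxb8 and BMD MLCs, 3 were higher in the former (15.2% of all genes passed, 6.95% higher). Ddx58 (log2FC 0.52, adjusted p = 0.286), Mavs (-1.13, adjusted p = 0.211) and Tbk1 (-0.17, adjusted p = 0.672) overlapped and did not pass. Mavs did pass with WTHox libraries alone (-2.26, adjusted p = 0.0214), while GFPHox libraries alone gave 0.007 (adjusted p = 0.9975). Against Hoxb8 macrophages, 4 were higher and 1 lower in Hoxb8 MLCs (34.8% of all genes passed, 16.6% higher and 18.2% lower). BMD MLCs exceeded microglia in 1 gene (20.5%, 10.9% higher), or in 2 without microglia replicate 8 (22.3%), and exceeded BMD macrophages in 1 (30.6%, 16.8% higher). Whether the change from culture to brain differed between the donors was tested as an interaction, added after the data were seen. In ER-Hoxb8 cells this change includes the difference in line. For Ifih1 the change was larger in ER-Hoxb8 cells by 2.31 (SE 0.42, adjusted p = 0.00184), and it was the 1 gene of the 6 that passed (3.28% of all genes, 2.21% in this direction). Dhx58 missed the threshold (1.97, SE 0.56, adjusted p = 0.0524) and passed without BMD macrophage replicate 2 (2.20, adjusted p = 0.0410), Hoxb8 MLC replicate 1 (2.12, adjusted p = 0.0368) or replicate 4 (1.67, adjusted p = 0.0444), and without microglia replicate 8 in the fit (1.97, SE 0.50, adjusted p = 0.0195). With the WTHox libraries alone it was 2.45 (adjusted p = 0.0203), and with the GFPHox libraries alone 1.48 (adjusted p = 0.0900). These comparisons share libraries: the microglia serve both MLC groups, and the Hoxb8 MLCs enter 4 of them, the interaction included.

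Other genes of the pathway were read from lists. Of 14 other genes for proteins that bind or answer double-stranded RNA, 5 were higher and 2 lower in Hoxb8 MLCs than in microglia, beside 15% of all genes higher and 33.9% passed. Zbp1, a sensor of Z-form nucleic acid, was higher by 7.54, and Oas1g and Oas2, oligoadenylate synthetases activated by double-stranded RNA, by 7.21 and 6.81. Of 16 signalling genes downstream of MAVS, 3 were higher and 1 lower, with Irf7, a transcription factor of interferon genes, higher by 6.33 and the related Irf3 lower by a log2FC of -1.90. Of 14 regulators of the helicases, 4 were higher and 4 lower, among them Ddx60 at 3.10 and Zcchc3 at -3.02. Of 10 genes on the output of PKR, 2 were higher, Asns at 2.42 and Atf3 at 1.59. Of the interferon factors, Stat2, a signal transducer of the interferon receptor, was higher by 3.21.

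Against BMD MLCs, Zbp1 was higher by 5.97, and, beside 6.95% of all genes higher, the lists gave 3 higher and 0 lower for signalling genes (Ikbke 4.46, Irf7 3.32), 0 and 1 for helicase regulators (Trim65 -1.09) and 2 and 0 for PKR output (Atf3 2.39). Stat2 was higher by 2.90. Ikbke encodes a kinase related to TBK1. Ifnb1, the gene of interferon beta, was at the lowest value of its set in all 6 BMD MLC libraries and in 4 of 6 Hoxb8 MLC libraries, with -0.11 and 0.36 log2 CPM in replicates 1 and 3.

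Markers of other cells varied among the brain libraries. Summed CPM of 6 neutrophil markers, led by S100a8, was 136.8 to 25650 in Hoxb8 MLCs (median 1386), 2266 to 19450 in BMD MLCs (median 15670) and 210.2 to 3396 in microglia (median 1104). In Hoxb8 MLCs it was 436, 136.8 and 182 in GFPHox replicates 1, 2 and 3 and 11080, 25650 and 2335 in WTHox replicates 4, 5 and 6. In BMD MLC replicates 1 and 2 it was 3674 and 2266. In replicates 3 to 6 it was 15340 to 19450, with Mavs at 3.56, 5.49, 6.32 and 6.12 log2 CPM. Mavs in replicates 1 and 2 was not below any of these levels. In microglia, replicates 4, 5 and 8, with low Mavs, had neutrophil sums of 1104, 3396 and 210.2 CPM, against 290.2 to 2364 in the others. A relation of Mavs to these sums was not tested. Ifih1 was at 6.48 or more in both series of Hoxb8 MLCs. Of 4 border macrophage markers, led by Mrc1, the sum was 1492 to 2252 in BMD MLCs, 2.54 to 1002 in Hoxb8 MLCs and 9.93 to 101 in microglia. Sums of 3 T cell markers were 13.7 to 121.7 in Hoxb8 MLCs, 5.90 to 92.4 in BMD MLCs and 1.64 to 19.6 in microglia, and those of 3 NK cell markers were 6.81 to 390.0, 4.42 to 17.2 and 0 to 10.4.

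For 2 other lists no library of Hoxb8 MLCs overlapped with BMD MLCs. Sums of 4 astrocyte markers, led by Gfap or Slc1a2 by library, were 15.8 to 31.8 in Hoxb8 MLCs and 4.54 to 12.3 in BMD MLCs, and those of 4 endothelium markers 45.4 to 102.7 and 12.2 to 28.8. B cell markers (3 genes) summed to 0.745 to 125.6 in Hoxb8 MLCs and 0.406 to 2.98 in BMD MLCs. The 5 macrophage markers summed to 1864 to 6001 in Hoxb8 MLCs and 4926 to 7776 in BMD MLCs, and 5 of the 6 Hoxb8 MLC libraries lay below all BMD MLC libraries. In microglia the astrocyte sum was 2.17 to 5.14 in 8 of 9 libraries and 273.6 in replicate 8, and that of endothelium 35.2 to 69.4. Plasmacytoid dendritic cell markers (4 genes) summed to 215.5 to 592 in Hoxb8 MLCs, most often led by Bst2, to 254 to 329.5 in BMD MLCs and to 1614 to 2436 in microglia, where Siglech, also listed as a microglia marker, made up 1469 to 2321.

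For neutrophil, T cell, NK cell, neuron and macrophage markers the sums did not overlap between culture and brain in either donor. Neutrophil markers summed to 2.77 to 28.9 CPM in BMD macrophages and 22.2 to 57.35 in Hoxb8 macrophages, T cell markers to at most 1.39 and 0.431, and NK cell markers to at most 0.731 and 1.18. Macrophage markers were above those of the MLCs, at 8230 to 10910 and 7881 to 10790. The part of all these markers in the results was not tested.

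**Figure D2:**
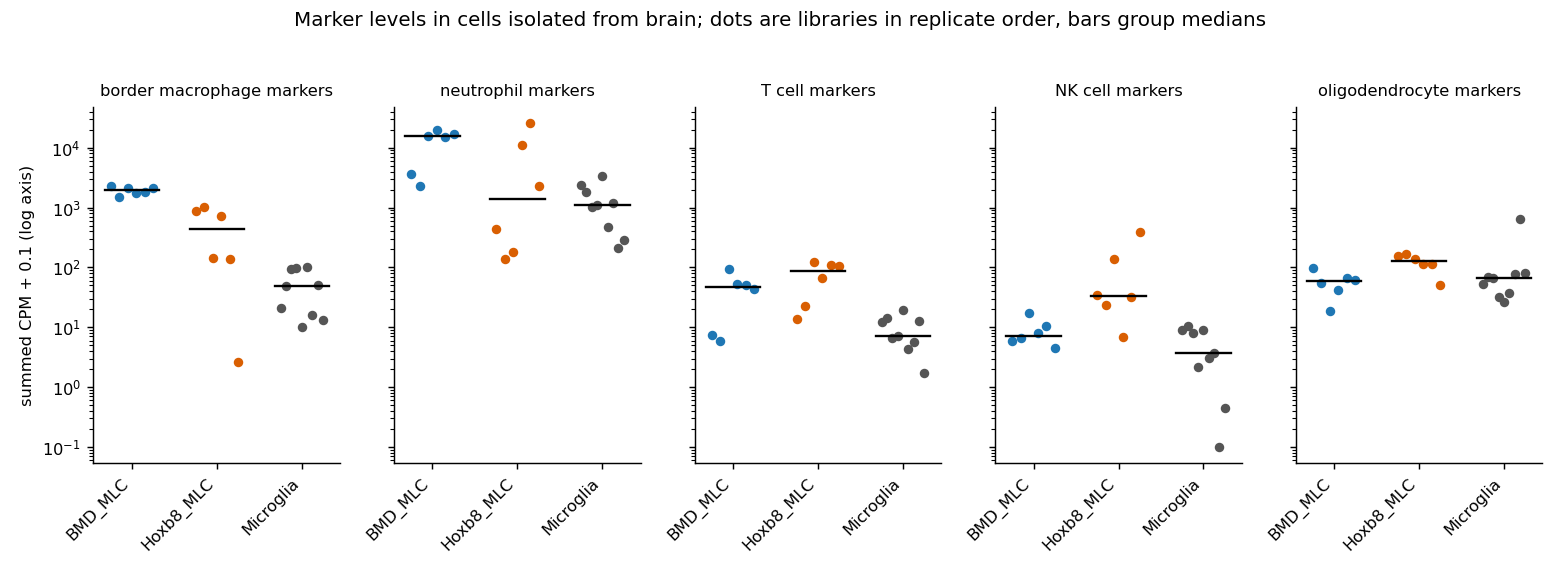
Summed CPM plus 0.1 (log y axis) of marker lists in cells isolated from brain (x axis), with a dot for each library and a bar for each group median. Neutrophil markers spread from 136.8 to 25650 CPM within Hoxb8 MLCs.

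Guides against Adar were used to ask how loss of the editing enzyme changes ER-Hoxb8 cells before and after differentiation. Adar itself was at 4.20, 3.42 and 4.28 log2 CPM in NTC progenitors and 4.36, 4.23 and 4.24 in sg1 progenitors, which overlapped. In macrophages it was at 5.73 and 5.67 with NTC (5.86 in replicate 2 on its own scale) and at 6.96, 7.15 and 7.01 with sg1. The targeted gene was thus higher, not lower, in every sg1 macrophage library of this set, grown without baricitinib (log2FC 1.34, SE 0.21, adjusted p = 0.000976). Small insertions and deletions at a guide's site need not lower a transcript, so these values do not check the knockout label.

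Progenitors with sg1 did not stand apart from their controls in level. Ifih1 was at 4.03, 3.47 and 3.52 log2 CPM with sg1 and 4.11, 3.67 and 3.56 with NTC, and Dhx58 at 2.22, 1.79 and 1.79 with sg1 and 2.50, 2.01 and 2.54 with NTC. All 6 genes overlapped between the guides. By replicate number, sg1 nonetheless lay below NTC in each pair for Ifih1 and for Dhx58. In limma 0 passed and 0 had an unadjusted p below 0.05, against 0.936% of all genes that passed. With a replicate block 0 passed as well. The 95% confidence interval of the log2FC was -0.56 to 0.35 for Ifih1, -0.51 to 0.74 for Ddx58, -0.87 to 0.04 for Dhx58 and -0.30 to 0.36 for Eif2ak2.

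In macrophages the helicase genes and Eif2ak2 stood apart between the guides. Ifih1 was at 7.76, 7.38 and 7.12 log2 CPM with sg1 and 4.85 and 4.74 with NTC, Ddx58 at 8.32, 7.98 and 7.71 against 5.46 and 5.33, and Dhx58 at 7.74, 7.45 and 7.07 against 5.02 and 5.07. Each sg1 library lay above both NTC libraries for all 3 helicase genes. The log2FC was 2.63 for Ifih1 (SE 0.23, adjusted p = 1.11e-05), 2.61 for Ddx58 (SE 0.32, adjusted p = 0.000138) and 2.38 for Dhx58 (SE 0.23, adjusted p = 2.32e-05). NTC macrophage replicate 2 was at 4.80, 4.51 and 4.98 on its own scale. Eif2ak2, the gene of PKR, was at 7.03, 6.76 and 6.73 with sg1 and 4.88 and 5.23 with NTC. It was higher in 3 of 3 sg1 libraries (log2FC 1.78, SE 0.17, adjusted p = 1.76e-05).

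The relays behaved otherwise. Mavs was at 6.54, 6.59 and 6.60 log2 CPM in sg1 macrophages and 7.15 and 7.00 in NTC macrophages, lower in each sg1 library. It fell by 0.50 on the log2 scale (SE 0.13, adjusted p = 0.0192), a call that was lost without sg1 macrophage replicate 2 (log2FC -0.50, adjusted p = 0.0536) or NTC macrophage replicate 1 (-0.42, adjusted p = 0.143). Tbk1 was at 7.45, 7.42 and 7.24 with sg1 and 7.27 and 7.19 with NTC. Its libraries overlapped, and it did not pass (log2FC 0.14, 95% confidence interval -0.20 to 0.48, adjusted p = 0.563). In all, 4 of the 6 genes were higher and 1 lower with sg1, where 21.8% of all genes passed, 14.5% higher and 7.29% lower. The median log2FC of the 6 was 2.08, against 0.05 over all genes tested. Quantile normalization moved the median of all genes by -0.105 and left these calls in place. With NTC macrophage replicate 2 included on a common scale of 12 libraries, log2FC was 2.59 for Ifih1, 2.87 for Ddx58, 2.36 for Dhx58, 1.63 for Eif2ak2 and -0.50 for Mavs.

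Several marker lists did not overlap between these macrophages. Summed CPM in the 3 sg1 libraries and in the 3 NTC libraries, replicate 2 on its own scale, was 6750 to 7862 against 9839 to 11280 for 5 macrophage markers, led by Cd68 with sg1 and Csf1r with NTC. For 4 border macrophage markers, led by Mrc1, it was 59.7 to 90.3 against 505 to 768. Higher with sg1 were 6 neutrophil markers, led by S100a8 (69.1 to 82.2 against 5.53 to 15.7), 4 endothelium markers, led by Flt1 (116 to 155 against 52.0 to 64.7), 4 plasmacytoid dendritic cell markers, led by Bst2 (601 to 1065 against 186 to 217), and 4 progenitor markers, led by Cd34 (2.96 to 9.75 against 1.45 to 1.62). Lower with sg1 were 4 oligodendrocyte markers, led by Mbp (28.0 to 34.6 against 62.9 to 72.2). B cell, T cell and NK cell markers summed to at most 0.468, 0.439 and 0.562 CPM in any of these libraries. Their part in the results was not tested.

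The guide's effect differed between the stages. As an interaction, the effect of sg1 was larger in macrophages than in progenitors by 2.73 for Ifih1 (SE 0.31, adjusted p = 0.000143), 2.50 for Ddx58 (SE 0.43, adjusted p = 0.00259), 2.79 for Dhx58 (SE 0.31, adjusted p = 0.000121) and 1.75 for Eif2ak2 (SE 0.22, adjusted p = 0.000319). That is 4 of the 6 genes, where 13.6% of all genes passed, 9.9% in this direction. Mavs did not pass (-0.45, SE 0.18, adjusted p = 0.115), though it did without NTC progenitor replicate 1 (-0.57, adjusted p = 0.0330) and with quantile normalization (-0.57, adjusted p = 0.0424), which moved the median of all genes by -0.114.

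Without an Adar guide, most of these genes were also higher in macrophages than in progenitors. By the methods of the study, the medium, estradiol and the growth factor changed with the stage and cannot be told apart from it. From NTC progenitors to NTC macrophages 5 of the 6 rose, where 71.8% of all genes passed and 33.1% rose: Ifih1 by a log2FC of 1.01, Ddx58 by 2.23, Dhx58 by 2.69, Mavs by 2.13 and Tbk1 by 0.94. Eif2ak2 was the exception, at 5.49, 4.98 and 5.24 log2 CPM in NTC progenitors and 4.88 and 5.23 in NTC macrophages (log2FC -0.18, adjusted p = 0.346). With sg1 all 6 rose (71.3% of all genes passed, 34.1% rose), Eif2ak2 by 1.57 and Dhx58, the largest, by 5.49. Marker sums moved as well. Neutrophil markers were at 16850 to 25150 CPM in NTC progenitors and at most 15.7 in NTC macrophages, replicate 2 on its own scale, and at 12140 to 18150 and at most 82.2 with sg1. Progenitor markers, led by Myb in progenitors, were at 119 to 129.1 and at most 1.62 with NTC and at 108.1 to 125.8 and at most 9.75 with sg1. What part these had in the results was not tested.

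Guide 2 has no control in its own normalization set, so its cells were compared only with each other. Adar was at 4.35, 4.56 and 4.36 log2 CPM in sg2 progenitors and 6.99 to 7.03 in the 5 macrophage libraries. Ifih1 was at 3.03, 3.08 and 3.20 in progenitors and 7.37, 7.58, 7.26, 7.35 and 7.43 in macrophages. Ddx58 went from 2.72, 2.95 and 2.97 to 7.50, 7.51, 7.54, 7.59 and 7.65. All macrophage libraries were higher than all progenitor libraries for these genes. Dhx58 went from 2.59, 2.33 and 2.29 to 6.98, 6.94, 7.03, 7.03 and 7.05, and Eif2ak2 from 5.92, 6.04 and 5.70 to 7.49, 7.60, 7.67, 7.59 and 7.53. All 6 genes rose, where 81.3% of all genes passed and 39.7% rose: Ifih1 by a log2FC of 4.29 (SE 0.07, adjusted p = 8.02e-12), Ddx58 by 4.68, Dhx58 by 4.60, Eif2ak2 by 1.69, Mavs by 1.07 and Tbk1 by 1.21. Neutrophil markers, at 2310 to 2837 CPM in progenitors, were at 20.4 to 26.4 in macrophages. Endothelium markers were at 29.3 to 34.4 and 101.2 to 113.8, and plasmacytoid dendritic cell markers at 114.5 to 121.1 and 506 to 594. Their part in the result was not tested.

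**Figure D3:**
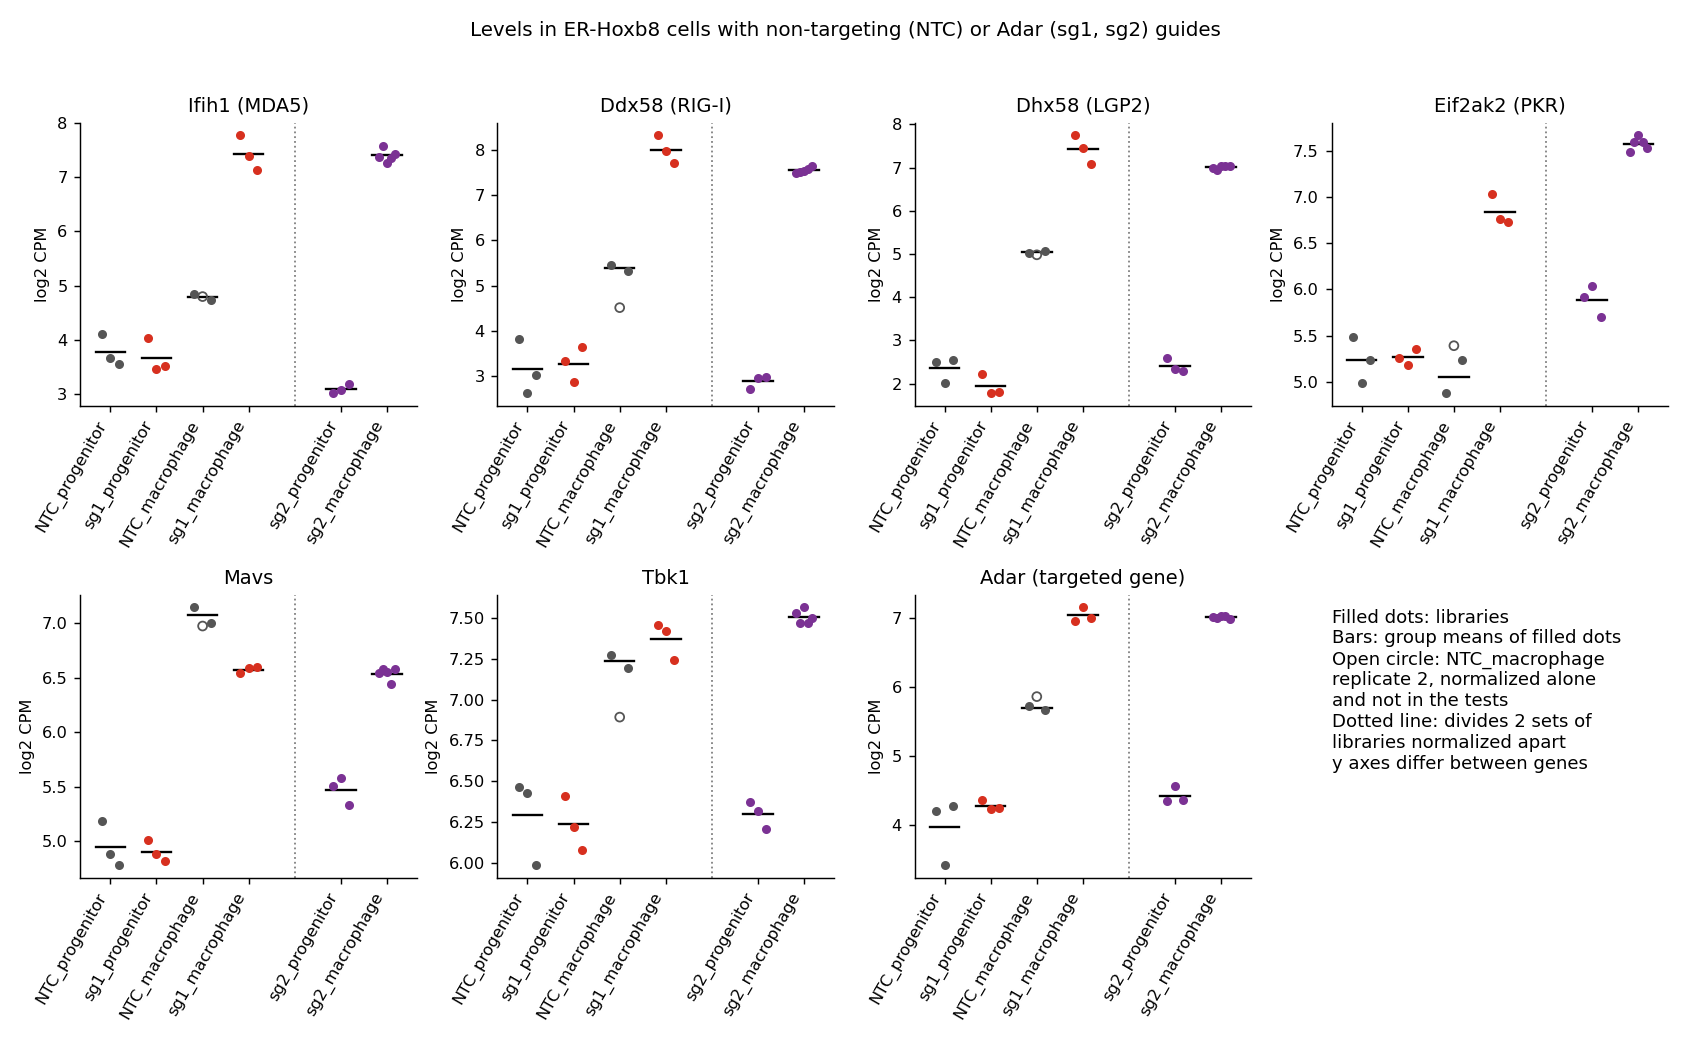
Levels (log2 CPM, y axis) of the 6 genes and Adar in cells with each guide (x axis), with a dot for each library, bars for group means and an open circle for the NTC macrophage library normalized alone. The helicase genes and Eif2ak2 are higher in sg1 and sg2 macrophages (Ifih1 at 7.12 to 7.76 and 7.26 to 7.58) than in the progenitors of the same guide.

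In sg1 macrophages some genes of the pathway lists differed from NTC, beside 14.5% of all genes higher and 7.29% lower and a median log2FC of 0.05 over all genes. Of 13 other double-stranded RNA genes tested, 5 were higher and 1 lower, with Zbp1 at 4.64, Oas1g at 4.21 and Oas3 at 4.04. Of 13 helicase regulators tested, 4 were higher and 1 lower (median 0.06), among them Ddx60 at 3.72 and Trim25, a ubiquitin ligase that acts on RIG-I, at 1.37. Of 16 signalling genes, 3 were higher (median 0.17), with Irf7 at 5.61 and the adaptors of TBK1 Azi2 and Tank at 0.72 and 0.69. Of 10 genes on the output of PKR, 5 were higher (median 0.69), led by Trib3 (2.73), Ddit3 (2.66) and Chac1 (2.15), all targets of the integrated stress response. Of the interferon factors, Stat2 was higher at 2.51 and Irf9 at 1.43, and the receptor gene Ifnar1 was lower at -0.62. In progenitors the same lists gave 1 higher and 1 lower gene in all, Oas1g at 0.72 and Tlr3, an endosomal receptor of double-stranded RNA, at -1.96. Ifnb1 was at 2.08, 1.55 and 0.09 log2 CPM in sg1 macrophages, at -3.43, the lowest value of its set, and -2.28 in the NTC macrophages of that set, and at the lowest value in all 3 sg1 progenitor libraries.

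Baricitinib was used to ask how much of the response of sg1 cells depends on JAK signalling. Without the drug, Adar was at 5.12, 4.94 and 4.69 log2 CPM in NTC and 7.42, 6.52 and 6.37 in sg1 macrophages (log2FC 1.85, adjusted p = 0.00510). Ifih1 was at 4.98, 4.28 and 4.33 with NTC and 6.80, 6.85 and 6.89 with sg1. Ddx58 was at 4.48, 4.04 and 4.07 with NTC and 7.32, 6.94 and 7.09 with sg1. Both genes were higher in every sg1 library. Dhx58 was at 5.19, 5.01 and 4.87 against 7.13, 6.57 and 6.44, and Eif2ak2 at 5.81, 5.69 and 5.56 against 7.05, 7.17 and 6.86, again without overlap. The log2FC was 2.32 for Ifih1 (SE 0.72, adjusted p = 0.0177), 2.92 for Ddx58 (SE 0.77, adjusted p = 0.00606), 1.69 for Dhx58 (SE 0.57, adjusted p = 0.0297) and 1.34 for Eif2ak2 (SE 0.40, adjusted p = 0.0133). Thus 4 of the 6 genes were higher, where 25.3% of all genes passed and 11.5% were higher. Some marker sums did not overlap either, sg1 against NTC: plasmacytoid dendritic cell 491.5 to 584 and 137 to 141 CPM, endothelium 98.2 to 107 and 63.8 to 67.9, oligodendrocyte 31.4 to 40.4 and 53.6 to 64.9, and neutrophil with medians of 64.6 and 79.1. Border macrophage markers were higher with sg1, at 89.1 to 98.35 against 44.5 to 60.7, opposite to the untreated macrophages of the other set. Their part in the result was not tested.

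These standard errors are wide because all 33 libraries share 1 estimate of the spread, which sg1 at 0.4 uM replicate 2 raises. Without that library the same 4 genes passed at 0 uM (30.8% of all genes), Ifih1 with SE 0.24 and adjusted p = 9.52e-09. With it, the call of Ifih1 at 0 uM was lost without NTC replicate 2 (log2FC 2.19, adjusted p = 0.0610) or replicate 3 (2.22, adjusted p = 0.0567). That of Dhx58 was lost without any of NTC replicates 1, 2 and 3 (adjusted p = 0.0513, 0.0719 and 0.0822, with log2FC 1.77, 1.68 and 1.61) and without sg1 replicate 1 (1.48, adjusted p = 0.111) or replicate 2 (1.76, adjusted p = 0.0553). Mavs was at 6.91, 6.72 and 6.89 log2 CPM with sg1 and 6.54, 6.43 and 6.46 with NTC. Here it was higher in each sg1 library, opposite in sign to the untreated macrophages of the other set, and did not pass (log2FC 0.36, SE 0.18, adjusted p = 0.134). It passed with only the compared groups in the fit (0.36, adjusted p = 0.0275) and with library weights (0.32, adjusted p = 0.0326).

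The lowest doses left the sensors of sg1 cells high. At 0.0006 uM Ifih1 was at 6.59, 7.36 and 6.65 log2 CPM with sg1 and 4.76, 4.38 and 4.51 with NTC, and at 0.016 uM at 7.44, 7.31 and 6.71 with sg1 and 4.06, 3.92, 3.97 and 4.30 with NTC. Neither dose brought the guides together. At each dose 4 of the 6 genes were higher with sg1, against 29% of all genes that passed at 0.0006 uM (13.5% higher) and 32.2% at 0.016 uM (16.6% higher). At 0.0006 uM the log2FC was 2.32 for Ifih1 (adjusted p = 0.0155), 2.91 for Ddx58 (adjusted p = 0.00527), 1.55 for Dhx58 (adjusted p = 0.0414) and 1.11 for Eif2ak2 (adjusted p = 0.0349). At 0.016 uM it was 3.09 for Ifih1 (adjusted p = 0.000724), 3.32 for Ddx58 (adjusted p = 0.000739), 2.04 for Dhx58 (adjusted p = 0.00396) and 1.85 for Eif2ak2 (adjusted p = 0.000308). Within each guide, 0 of the 6 genes passed in limma between either dose and 0 uM, and 0 had an unadjusted p below 0.05 (0% of all genes passed for NTC at either dose, 2.34% and 6.21% for sg1 at 0.0006 and 0.016 uM).

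Of the 4 calls at 0.0006 uM, 3 were lost when a single library was left out. Ddx58 passed in each of 7 such fits (log2FC 2.85 to 2.99, highest adjusted p = 0.0198). Ifih1 was lost without sg1 replicate 2 (log2FC 2.07, adjusted p = 0.0638). Dhx58 was lost without any 1 of the 6 libraries: NTC replicates 1, 2 and 3 gave 1.34, 1.70 and 1.60 (adjusted p = 0.131, 0.0583 and 0.0741) and sg1 replicates 1, 2 and 3 gave 1.63, 1.49 and 1.53 (adjusted p = 0.0679, 0.0980 and 0.0909). Eif2ak2 was lost without NTC replicate 1 or 3 (1.15 and 0.95, adjusted p = 0.0621 and 0.128) and without sg1 replicates 1, 2 or 3 (1.18, 1.11 and 1.06, adjusted p = 0.0578, 0.0759 and 0.0926). Without sg1 at 0.4 uM replicate 2, the same 4 genes passed at 0.0006 uM (33.8% of all genes) and at 0.016 uM (36.9%).

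At 0.4 uM the sg1 libraries disagreed, and whether replicate 2 was treated as its label states could not be checked. Ifih1 was at 3.66, 9.32 and 4.37 log2 CPM in sg1 replicates 1, 2 and 3, Ddx58 at 3.25, 9.17 and 3.77, Dhx58 at 3.88, 8.39 and 4.44 and Eif2ak2 at 5.26, 8.21 and 5.50. Replicate 2 was above every sg1 library at 0 uM for each of these genes, and the others were below every one. Tbk1 had the same pattern, at 6.66, 7.67 and 6.65. Mavs was at 6.44, 6.25 and 6.44, lowest in replicate 2 and below every sg1 library at 0 uM in all 3. NTC macrophages at this dose had Ifih1 at 3.63, 3.97, 4.00 and 3.98 and Ddx58 at 3.03, 2.65, 2.61 and 4.06. Ifnb1 was at 6.02 in sg1 replicate 2 and at -2.78, the lowest value, and -2.29 in the others, and Irf7 at 10.52 against 0.70 and 3.31. For some marker lists all 3 sg1 libraries lay apart from those at 0 uM. Among them, border macrophage sums were 11.45 to 37.2 CPM against 89.1 to 98.35, and neutrophil sums 76.3 to 325 against at most 67.4. Plasmacytoid dendritic cell sums were 111.2, 139.2 and 1210 from lowest to highest, against 491.5 to 584. Endothelium sums were 77.6, 82.6 and 244.3, against 98.2 to 106.8. The part of these lists in the results was not tested.

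With all libraries, 2 of the 6 genes were higher in sg1 than in NTC at 0.4 uM (13.5% of all genes passed, 7.68% higher), Ddx58 (log2FC 2.31, SE 0.72, adjusted p = 0.0336) and Eif2ak2 (1.25, SE 0.37, adjusted p = 0.0252). Without sg1 replicate 2, 0 of the 6 passed in limma (6.62% of all genes), with log2FC 0.12 for Ifih1, 0.42 for Ddx58, -0.06 for Dhx58 and 0.31 for Eif2ak2. Without sg1 replicate 1 or 3, Ifih1 (2.95 and 2.59, adjusted p = 0.00183 and 0.0135) and Dhx58 (2.19 and 1.91, adjusted p = 0.00317 and 0.0211) passed too. Ddx58 was lost without NTC replicate 1, 2 or 3 (2.29, 2.17 and 2.15, adjusted p = 0.0652, 0.0781 and 0.0805), and Eif2ak2 without NTC replicate 3 (1.18, adjusted p = 0.0620).

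Between 0.4 and 0 uM within sg1, 0 of the 6 genes passed in limma with all libraries, 2 had an unadjusted p below 0.05, and 26.6% of all genes passed. Without replicate 2, 5 fell (32.8% of all genes): Ifih1 with a log2FC of -2.83 (adjusted p = 2.1e-09), Ddx58 with -3.61 (adjusted p = 3.7e-10), Dhx58 with -2.55 (adjusted p = 1.21e-10), Eif2ak2 with -1.65 (adjusted p = 4.2e-08) and Tbk1 with -0.31 (adjusted p = 0.0318). Whether the guide's effect at 0.4 uM differed from that at 0 uM gave 0 genes in limma with all libraries, 0 of them at an unadjusted p below 0.05 (4.76% of all genes passed). Without replicate 2 it gave 4, all lower at 0.4 uM (13.7%), by a log2FC of -2.20 for Ifih1, -2.50 for Ddx58, -1.75 for Dhx58 and -1.03 for Eif2ak2. In NTC cells 0 of the 6 passed in limma between 0.4 and 0 uM and 0 had an unadjusted p below 0.05 (0.00897% of all genes). Without the sg1 library in the fit, 2 fell (0.629%), Ddx58 with -1.11 (adjusted p = 0.0344) and Dhx58 with -0.80 (adjusted p = 0.0161).

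At 10 uM the sensors of sg1 cells were low in all libraries. Ifih1 was at 4.16, 3.75, 3.43 and 3.32 log2 CPM with sg1 and 3.86, 3.63 and 3.32 with NTC. Ddx58 was at 3.47, 3.63, 3.52 and 3.38 with sg1 and 3.55, 2.46 and 3.32 with NTC. Both genes overlapped between the guides. Dhx58 was at 3.03, 2.75, 2.93 and 2.86 with sg1, below the 3.87, 3.63 and 3.83 of NTC, and Eif2ak2 at 5.55, 6.03, 5.73 and 5.49 with sg1, above the 5.29, 5.24 and 5.05 of NTC. Mavs was at 4.84, 4.11, 5.34 and 5.34 with sg1 and 6.16, 6.28 and 6.29 with NTC. It was lower in every sg1 library, and it was the 1 gene of the 6 that passed between the guides at this dose, where 45.3% of all genes did and 23.9% were lower (log2FC -1.33, SE 0.16, adjusted p = 2.14e-07). Without sg1 at 0.4 uM replicate 2 in the fit, 4 passed (50.6%), with Dhx58 at -0.88 (adjusted p = 9.67e-05), Eif2ak2 at 0.50 (adjusted p = 0.00709) and Tbk1 at -0.27 (adjusted p = 0.0160) beside Mavs.

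Against 0 uM, 5 of the 6 genes fell in sg1 macrophages at 10 uM, where 65.8% of all genes passed and 31.9% fell. The log2FC was -3.19 for Ifih1 (SE 0.67, adjusted p = 0.000156), -3.61 for Ddx58 (SE 0.72, adjusted p = 8.33e-05), -3.82 for Dhx58 (SE 0.53, adjusted p = 4.94e-07), -1.33 for Eif2ak2 (SE 0.37, adjusted p = 0.00259) and -1.93 for Mavs (SE 0.16, adjusted p = 7.01e-11). Tbk1, at 6.89, 6.55, 6.73 and 6.62 log2 CPM against 7.01, 6.88 and 7.00 at 0 uM, overlapped and did not pass (log2FC -0.27, adjusted p = 0.129), but passed without sg1 at 0.4 uM replicate 2 (adjusted p = 0.0124, 68.9% of all genes). Adar was at 1.55, 2.15, 2.91 and 2.03 in sg1 cells at 10 uM, a log2FC of -4.61 from 0 uM. At 10 uM Adar was lower with sg1 than with NTC, without sg1 at 0.4 uM replicate 2 in the limma fit (log2FC -1.36, SE 0.23, adjusted p = 2.1e-05).

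In NTC macrophages at 10 uM, 0 of the 6 genes passed in limma against 0 uM and 1 had an unadjusted p below 0.05 (13.8% of all genes passed). Ifih1 (log2FC -0.93), Ddx58 (-1.09), Dhx58 (-1.25) and Eif2ak2 (-0.49) nonetheless lay below 0 uM in every library. Without the sg1 library in the fit these 4 passed (20.9% of all genes), with adjusted p = 0.00561, 0.00505, 1.99e-05 and 0.0303. The change in the guide's effect from 0 to 10 uM passed for 2 of the 6 genes, where 39.5% of all genes passed, 20% in this direction: Dhx58 (-2.57, SE 0.78, adjusted p = 0.0105) and Mavs (-1.70, SE 0.24, adjusted p = 4.2e-06). It missed the threshold for Ifih1 (-2.26, SE 0.98, adjusted p = 0.0692) and Ddx58 (-2.53, SE 1.06, adjusted p = 0.0589), and all 6 genes passed without the sg1 library (44.7%). Between the lower doses and 0 uM this change gave 0 genes in limma and 0 at an unadjusted p below 0.05 (0% and 0.00897% of all genes at 0.0006 and 0.016 uM).

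**Figure D4:**
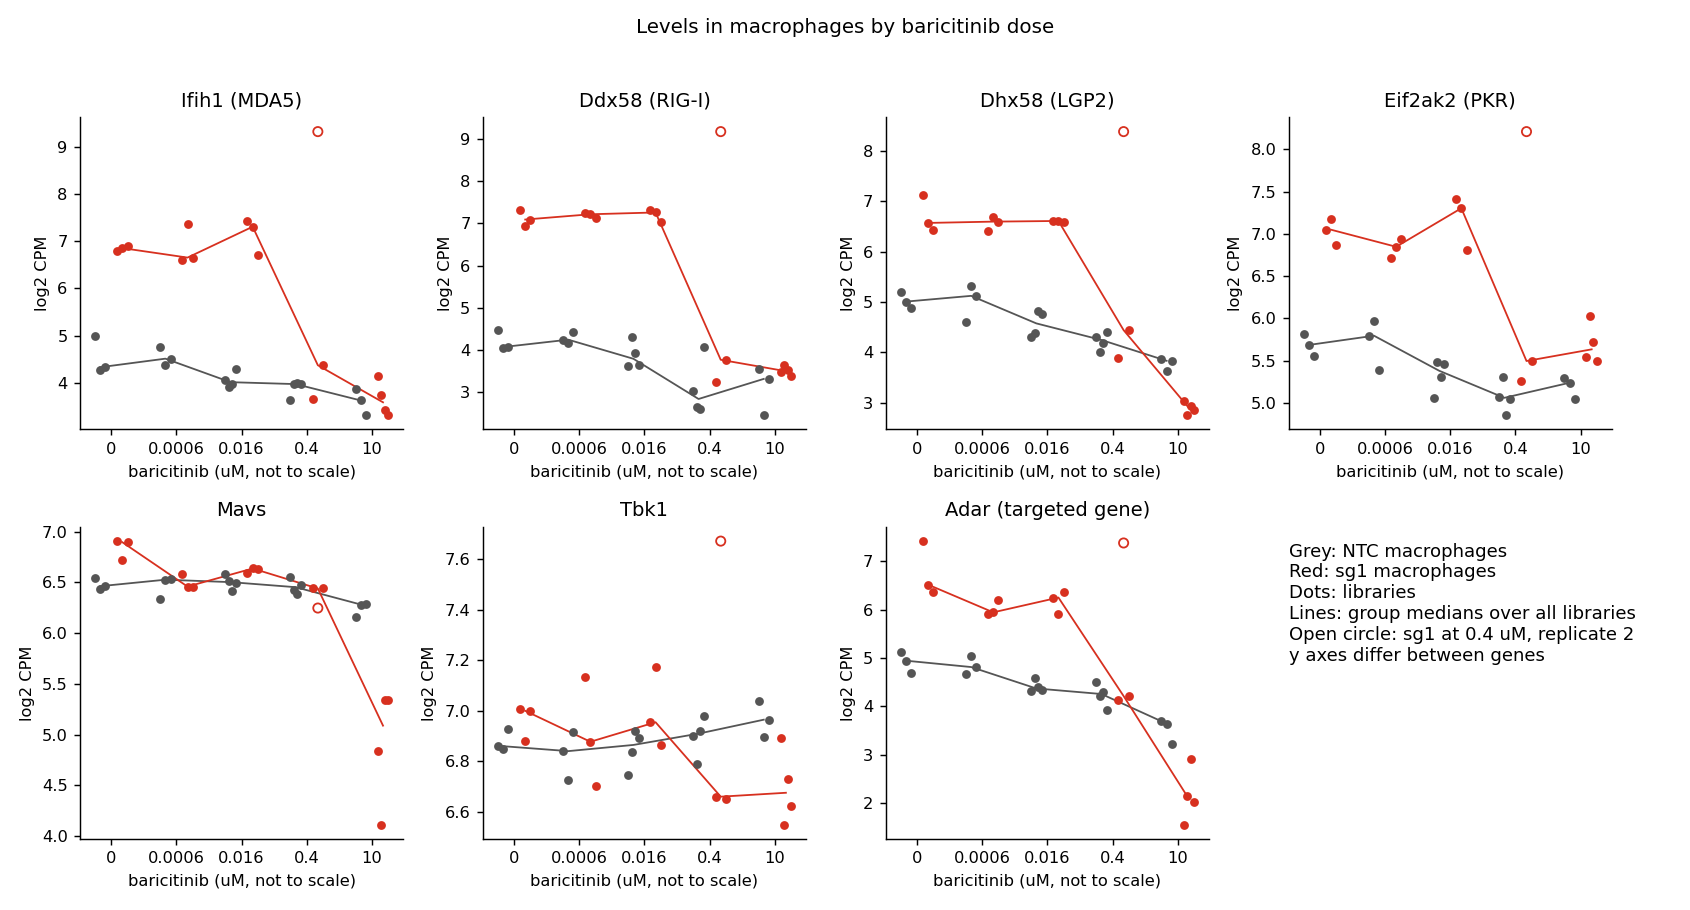
Levels (log2 CPM, y axis) of the 6 genes and Adar in macrophages by baricitinib dose (x axis, not to scale), with a dot for each library, lines through group medians and an open circle for sg1 at 0.4 uM replicate 2. The helicase genes and Eif2ak2 of sg1 cells stay high up to 0.016 uM and are low at 10 uM, where Ifih1 is at 3.32 to 4.16.

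The lists moved as follows with baricitinib. At 0 uM, where 11.5% of all genes were higher with sg1, sg1 exceeded NTC in 2 of 13 helicase regulators (Ddx60 4.26), 4 of 16 signalling genes (Irf7 5.60) and 1 of 10 genes of PKR output (Ddit3 2.89). Without sg1 at 0.4 uM replicate 2 in the fit, these counts were 4, 6 and 4, and 30.8% of all genes passed in either direction. Zbp1 was higher by 4.42, Oas1g by 3.89 and Stat2 by 2.79, and Ifnar1 was lower at -0.79. From 0 to 10 uM in sg1 cells, Oas3 fell with a log2FC of -10.21 and Oas1g with -9.87. Of the 16 signalling genes 6 fell and 4 rose, near the 31.9% of all genes that fell and the 65.8% that passed, with Irf7 at -9.47, Ikbke at -3.49 and Rela, a subunit of NF-kappaB, at -2.54. Of the genes of PKR output 7 fell and 3 rose, with Atf3 at -4.20, Trib3 at -3.94 and Dnajc3, a chaperone known as an inhibitor of PKR, at 2.34. Stat2 fell with -5.26, and the receptor gene Ifnar2 rose by 1.82. Between the guides at 10 uM, where 45.3% of all genes passed, 2 helicase regulators were higher and 2 lower with sg1, 1 signalling gene was higher and 3 lower (Ikbke -1.93, Rela -1.49, Irf3 -1.45), and of PKR output 1 was higher and 6 lower (Trib3 -4.18). The macrophage markers, led by Cd68, summed to 3796 to 4414 CPM in sg1 cells at 10 uM, against 6855 to 7162 at 0 uM and 5381 to 5776 in NTC cells at 10 uM. In sg1 cells, progenitor markers were at 10.8 to 14.3 CPM at 10 uM and 1.54 to 3.33 at 0 uM, against 1.45 to 2.09 in NTC cells at 10 uM. Endothelium markers were at 34.25 to 47.2 and 98.2 to 107, and plasmacytoid dendritic cell markers at 101 to 122 and 491.5 to 584. Border macrophage markers at 10 uM were at 50.6 to 70.3 with sg1 and 15.4 to 27.8 with NTC. The part of these differences in the results was not tested.

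**Figure D5:**
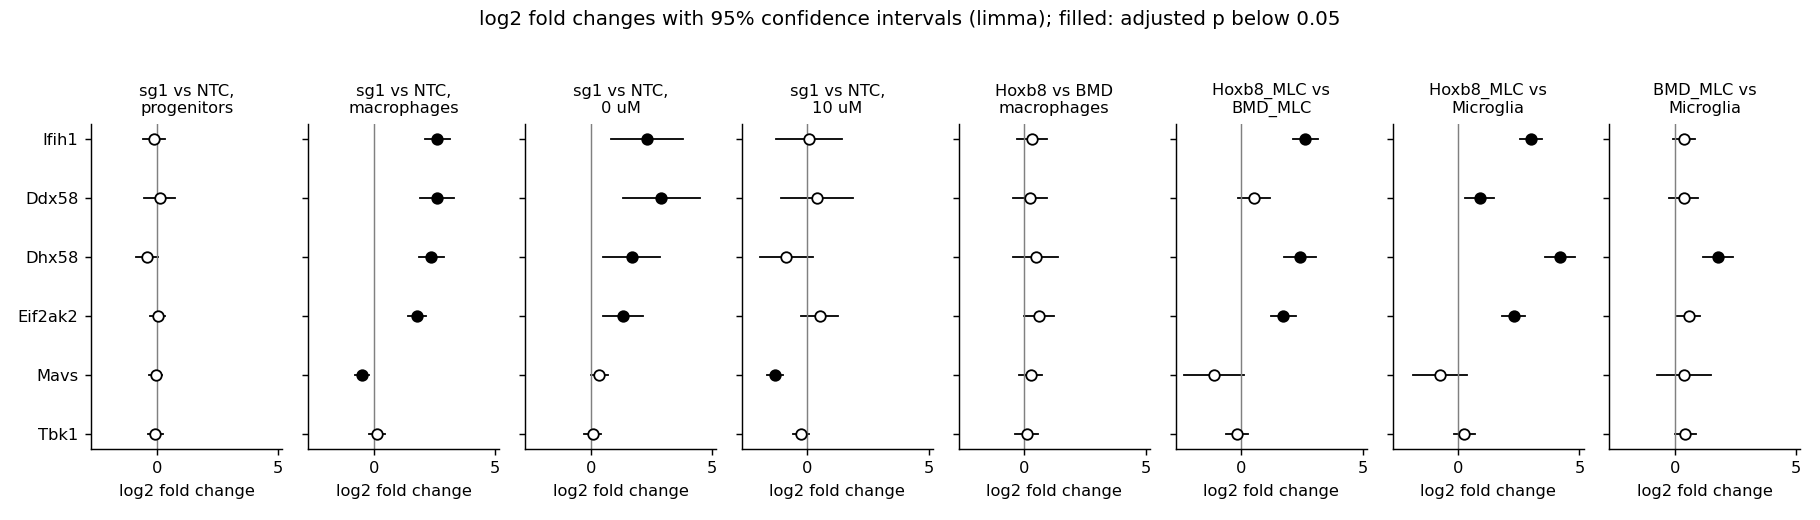
Fitted log2FC (x axis) of the 6 genes (y axis) in 8 comparisons, with 95% confidence intervals from limma and filled points where the adjusted p is below 0.05. Ifih1, Dhx58 and Eif2ak2 pass in the same direction in sg1 macrophages and in Hoxb8 MLCs. Mavs is below 0 in 5 of the 8 panels, but does not pass in all of them. It did not pass in Hoxb8 MLCs against microglia (log2FC -0.75, adjusted p = 0.306) or BMD MLCs (-1.13, adjusted p = 0.211). In sg1 against NTC progenitors it did not pass either (-0.05, adjusted p = 0.998). Some panels share libraries, and how many of all genes have such a count of signs was not tested.

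Genes with the most similar course were found by Pearson correlation over the 33 baricitinib libraries and 11152 genes, as a description. The closest were Phf11b, Ube2l6 and Rnf34 for Ifih1 (r = 0.989, 0.987 and 0.985), Trim30a, Irgm1 and Sp100 for Ddx58 (0.986, 0.984 and 0.983) and Parp9, Dtx3l and Stat2 for Dhx58 (0.984, 0.981 and 0.981). For Eif2ak2 they were Ifi202b, Rnf213 and Sp100 (0.978, 0.971 and 0.971), for Mavs Atg7, Trpv2 and Scamp4 (0.987, 0.986 and 0.981) and for Tbk1 Necap1, Tmem67 and 5031414D18Rik (0.893, 0.855 and 0.834). Among the 6 genes, Ifih1 correlated with Ddx58 at 0.971, with Eif2ak2 at 0.951 and with Dhx58 at 0.937, but with Tbk1 at 0.612 and with Mavs at 0.376. Without sg1 at 0.4 uM replicate 2 (32 libraries, 11128 genes) these were 0.966, 0.936, 0.922, 0.428 and 0.442. The closest genes then stayed the same for Ifih1, Ddx58 and Eif2ak2, but were Lgals3bp, Slfn8 and Parp9 for Dhx58 (0.984, 0.982 and 0.980), Atg7, Trpv2 and Pfkl for Mavs (0.987, 0.987 and 0.982) and Zfp790, Necap1 and Ash2l for Tbk1 (0.805, 0.771 and 0.746). Over the 27 libraries of cultured macrophages and brain cells (12518 genes), H2-K2 and Herc6 were among the closest to Ifih1 (0.927 and 0.925), and Ifih1 correlated with Dhx58 at 0.886, with Eif2ak2 at 0.883, with Ddx58 at 0.512 and with Mavs at -0.275. The libraries of a set share their groups, so these values can reflect differences between groups. Correlation within groups was not tested.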

How the data were processed

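The deposited values were log2 CPM. The authors aligned reads with kallisto 0.46.0 to GRCm39 and normalized them by TMM in edgeR (version not given) before deposit, separately for 6 sets of libraries. Values were used as deposited and compared only within a set, except in 1 alternative that put the 12 NTC and sg1 libraries, NTC macrophage replicate 2 included, on a common scale. The 1 row without a gene name was dropped.

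Genes above 1 CPM in at least 3 libraries (6 in the fit of brain cells) were tested with limma 3.58.1 in R 4.3.3, with group means, a trend of variance with level and p adjusted by Benjamini-Hochberg over all genes tested: 12056 for marrow and early ER-Hoxb8 cells, 10764 for cultured macrophages, 12518 for brain cells, 11008 for sg1 and NTC, 10698 for sg2 and 11152 for baricitinib. Every adjusted p is from limma. A gene passed at an adjusted p below 0.05; a stricter call that was planned, with a log2FC of at least 2 as well, is not used in the counts. Tables and figures were made in Python 3.11.15 with numpy 2.4.6, pandas 2.3.3 and matplotlib 3.10.9.

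Alternatives were other log offsets, quantile normalization, no filter, library weights, only the compared groups, a replicate block, single series of libraries and leaving out each library. The members and lists were chosen with earlier results of these data known. Added after the data were seen were the difference of changes between donors, fits and correlations without sg1 at 0.4 uM replicate 2, fits without microglia replicate 8, and the replicate block in 2 comparisons. Whether libraries with the same replicate number deviated together from their group means was checked in 27 comparisons. Every such pair correlated above 0.1 in 2 comparisons with 3 pairs or more, and in sg1 against NTC macrophages both of 2 pairs did (0.153 and 0.158). Among 146 pairs of replicates the variance was at least 3.94 times that of counting error alone, so the spread is not counting error only.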

Additional observations from a re-analysis of the deposited data

Results flagged for a closer look

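Single libraries were looked for in 49 sets of a gene and a group, taken from the 7 groups of at least 4 libraries, by whether the gap to the next library, as a share of the range of the group, passed a tabled critical value (Dixon), and about 1 in 20 groups would be named by chance. There were 4. Groups of 3, such as sg1 at 0.4 uM, were not tested. Ifih1 was lowest in NTC at 0.4 uM replicate 1, at 3.63 log2 CPM. Dhx58 was highest in BMD MLC replicate 2, at 4.86. In microglia replicate 8, Dhx58 was highest at 3.82 and Tbk1 at 7.06.

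Changes that differed between groups at an adjusted p below 0.05 in limma numbered 9. The change from culture to brain was larger in ER-Hoxb8 than in marrow cells for Ifih1, by 2.31 on the log2 scale. In ER-Hoxb8 cells that change includes the difference in line. The effect of sg1 was larger in macrophages than in progenitors for Ifih1 by 2.73, Ddx58 by 2.50, Dhx58 by 2.79, Eif2ak2 by 1.75 and Adar by 1.03. From 0 to 10 uM baricitinib the effect of sg1 changed by -2.57 for Dhx58, -1.70 for Mavs and -3.21 for Adar.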

How the results depend on the processing

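Counts of the 6 genes that passed were compared with those under other choices. The cause of each move was not tested.

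With library weights, 3 genes in place of 1 passed between BM monocytes and BM progenitors, 0 in place of 1 between Hoxb8 and BM progenitors (0 also with only the compared groups), and 2 in place of 1 between BMD MLCs and BMD macrophages. For BMD MLCs against microglia the count of 1 became 4 with library weights and 2 with quantile normalization, with only the compared groups and without the YSWT libraries. For the difference of changes between donors it went from 1 to 3 with library weights and to 2 with an offset of 1 CPM, a replicate block or WTHox libraries alone.

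Between sg1 and NTC, without a filter the count was 2 in place of 4 at 0.0006 uM and 1 in place of 2 at 0.4 uM, where only the compared groups gave 0. At 10 uM it went from 1 to 2 with quantile normalization and to 3 with library weights or only the compared groups. From 0 genes in NTC cells, library weights gave 3 at 0.4 uM and 3 at 10 uM against 0 uM, and only the compared groups gave 1 and 4. From 0 in sg1 cells at 0.4 uM, library weights gave 6, and an offset of 1 CPM, quantile normalization and a replicate block gave 1 each. For the change in the guide's effect, library weights gave 4 in place of 0 at 0.4 uM and 6 in place of 2 at 10 uM, where only the compared groups gave 5.

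The log2FC of Tbk1 turned from 0.10 to -0.22 with library weights between sg1 and NTC at 0.4 uM. In sg1 cells between 0.4 and 0 uM it turned from 0.03 to -0.25 with library weights, and leaving out each library gave -0.31 (sg1 at 0.4 uM replicate 2) to 0.20 (replicate 3).

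Leaving out each library in turn gave 0 to 2 genes for Hoxb8 against BM progenitors, 0 to 1 for day 4 against day 0, 1 to 2 for BMD MLCs against microglia and 1 to 2 for the difference between donors. For sg1 against NTC it gave 2 to 4 at 0 uM, 1 to 4 at 0.0006 uM, 0 to 4 at 0.4 uM and 1 to 4 at 10 uM. Against 0 uM it gave 0 to 2 for NTC at 0.4 uM, 0 to 4 for NTC at 10 uM and 0 to 5 for sg1 at 0.4 uM. For the change in the guide's effect it gave 0 to 4 at 0.4 uM and 2 to 6 at 10 uM.

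Libraries of the same replicate number deviated together between day 0 and day 4 of ER-Hoxb8 cells and between sg1 and NTC progenitors. With a replicate block the count stayed 0 in each. In sg1 against NTC macrophages, where 2 of 2 pairs did so, it stayed 5 with the block.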
